A study of Rattus norvegicus with 12 samples.

Results

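Autophagy and lysosome genes were examined in RNA-seq count data from the cerebral cortex of adult male Sprague Dawley rats after embolic stroke. The members were taken by gene symbol alone: the numbered Atg genes, Lamp1 to Lamp3, the single-letter cathepsins, Map1lc3a and Map1lc3b, the Gabarap family, the Wipi and Ulk genes, and Becn1, Sqstm1, Tfeb, Optn, Nbr1, Uvrag, Pik3c3 and Rb1cc1. This rule found 53 of the 17268 genes in the table. Lamp2, Atg4a and Atg4b were not analysed here. The 12 libraries formed 4 groups of 3. Sham rats had the vessel surgery without a clot, and Model rats had a blood clot injected into the middle cerebral artery and no treatment. Rats of the rt-PA group had the clot and then intravenous recombinant tissue type plasminogen activator, the clot-dissolving drug, 6 h later. Rats of the rt-PA+Acu group had the clot, manual acupuncture at the GV26 and PC6 points 2 h later, and rt-PA at 6 h. The study asked what acupuncture changes when thrombolysis is given late, so Model was compared with Sham, rt-PA with Model and rt-PA+Acu with rt-PA, and a comparison of rt-PA+Acu with Sham was added here. There was no group with acupuncture alone, and the hemisphere and hour at which tissue was taken for RNA are not given in the sources used here.

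Macroautophagy is the route by which a cell encloses cytoplasm in a double membrane and delivers it to the lysosome. The Ulk kinase complex starts the process, the Beclin 1 and Pik3c3 lipid kinase complex marks the growing membrane with phosphatidylinositol 3-phosphate, and Wipi proteins read that mark. A ubiquitin-like conjugation system then attaches Atg8 proteins, the LC3 and GABARAP families, to the membrane, and receptors such as p62, the product of Sqstm1, link cargo to them. Cathepsins are the proteases that finish the work inside the lysosome, and several of them are abundant in macrophages and microglia. Levels of messenger RNA do not measure autophagic flux, which depends on protein turnover.

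Library totals ran from 11678450 to 13616935 counts. Neuronal and astrocytic markers were abundant in every library, with summed levels of at least 5370 and 4860 CPM. Values are given as CPM, counts scaled to the same library size, with TMM normalisation over the 12 libraries, and a gene with 3 counts would lie at 0.208 to 0.262 CPM. Differences are log2 fold changes with their standard error (SE) from edgeR's quasi-likelihood test on the 6 libraries of each comparison, n = 3 per group, and a gene was called higher or lower at a Benjamini-Hochberg adjusted p under 0.05 over all genes tested. A gene that also had an absolute log2 fold change over 1 was termed a DEG, after the study's threshold. The labels do not say whether libraries of a group came from different animals, so the p-values measure the spread among 3 libraries. Libraries also differed in ways the groups do not explain. Rpl39, a ribosomal protein gene, had 105 to 151 counts in Sham and 142 in Model replicate 3 but 488 to 990 in the other 8 libraries, and what part this plays in the results was not tested. Summed oligodendrocyte markers varied widely within groups, from 1840 to 9240 CPM in Model and from 2880 to 12400 CPM in rt-PA, and lay at 22600, 9440 and 3510 CPM in replicates 1, 2 and 3 of rt-PA+Acu, against 12800 to 19100 CPM in Sham. Replicate 3 of rt-PA+Acu was also nearest to rt-PA at several members, and the calls that change without it are given. In whole tissue, fewer cells of a type and less RNA per cell cannot be told apart.

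The promoters of the members are shown because Tfeb, the transcription factor regarded as the main activator of lysosomal genes, binds a sequence known as the CLEAR element, with the core TCACGTGA. RefSeq windows of 250 bases before to 50 after the transcription start, on build GRCr8, were found for 47 of the 53 members, and none was found for Atg9a, Becn1, Ctsb, Ctsw, Map1lc3a and Rb1cc1. The core was searched on both strands and reads the same on each. It lay in 3 of the 47 windows (6.38%), those of Atg3, Ctsd and Lamp1, and in 260 of all 33468 windows (0.777%). The shorter E-box CACGTG, which every CLEAR core contains, lay in 6 of the 47 windows (12.8%), those of Atg14, Atg3, Atg5, Ctsd, Ctsf and Lamp1, and in 6.42% of all windows. Each member had a single window, while the set of all windows was not limited in this way or by gene type. These shares therefore come from unlike sets. A match is a description of the letters and not evidence of binding. The 100 bases before the start are printed 5′ to 3′ for the 3 genes that hold the core, in capitals, and for 3 cathepsin genes with large changes whose windows hold neither motif. The minus strand is given for Atg3 (chr11:69159281-69159380), Ctsd (chr1:206968822-206968921) and Lamp1 (chr16:83075064-83075163), and the plus strand for Ctsk (chr2:185747448-185747547), Ctsc (chr1:151440949-151441048) and Ctsl (chr17:770004-770103).
Atg3: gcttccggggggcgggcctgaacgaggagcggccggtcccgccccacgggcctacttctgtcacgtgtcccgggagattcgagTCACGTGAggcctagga
Ctsd: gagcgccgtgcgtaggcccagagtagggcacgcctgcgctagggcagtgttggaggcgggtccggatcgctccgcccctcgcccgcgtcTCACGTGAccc
Lamp1: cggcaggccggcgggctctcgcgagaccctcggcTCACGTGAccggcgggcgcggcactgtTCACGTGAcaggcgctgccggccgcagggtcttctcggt
Ctsk: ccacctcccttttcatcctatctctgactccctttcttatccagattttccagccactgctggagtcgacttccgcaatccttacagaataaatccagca
Ctsc: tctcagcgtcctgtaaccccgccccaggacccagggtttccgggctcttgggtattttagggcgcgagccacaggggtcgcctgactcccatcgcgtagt
Ctsl: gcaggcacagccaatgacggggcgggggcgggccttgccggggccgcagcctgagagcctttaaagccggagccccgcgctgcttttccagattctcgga
The 3 genes with the core did not move together in Model vs Sham: Atg3 was higher, Lamp1 was lower, and Ctsd was not called.

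The comparison of Model with Sham asked what the clot changed. Cathepsin genes made up the large changes among the members: Ctsk, Ctsc and Ctsz rose and Ctse and Ctss fell by more than 1 on the log2 scale, and no other member passed that size. The genes of the autophagy machinery changed less and in both directions. Of 46 members with enough counts to be tested, 12 were higher (26.1%) and 11 were lower (23.9%), while 23 were not called. Among all 12884 genes tested, 27.3% were higher and 26.6% were lower, so the members' shares were close to the background. At the DEG threshold 3 members were higher and 2 were lower, against 9.43% and 12% of all genes. The median absolute log2 fold change was 0.31 over the members tested and 0.48 over all genes. It was 0.98 for the 12 tested cathepsins and 0.15 for the 34 other members. Leaving out each of the 6 libraries in turn gave 9 to 12 members higher and 9 to 11 lower. The members took 0.516% to 0.537% of all counts in Sham, 0.56% to 0.614% in Model, 0.628% to 0.669% in rt-PA and 0.537% to 0.564% in rt-PA+Acu.

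**Figure D1:**
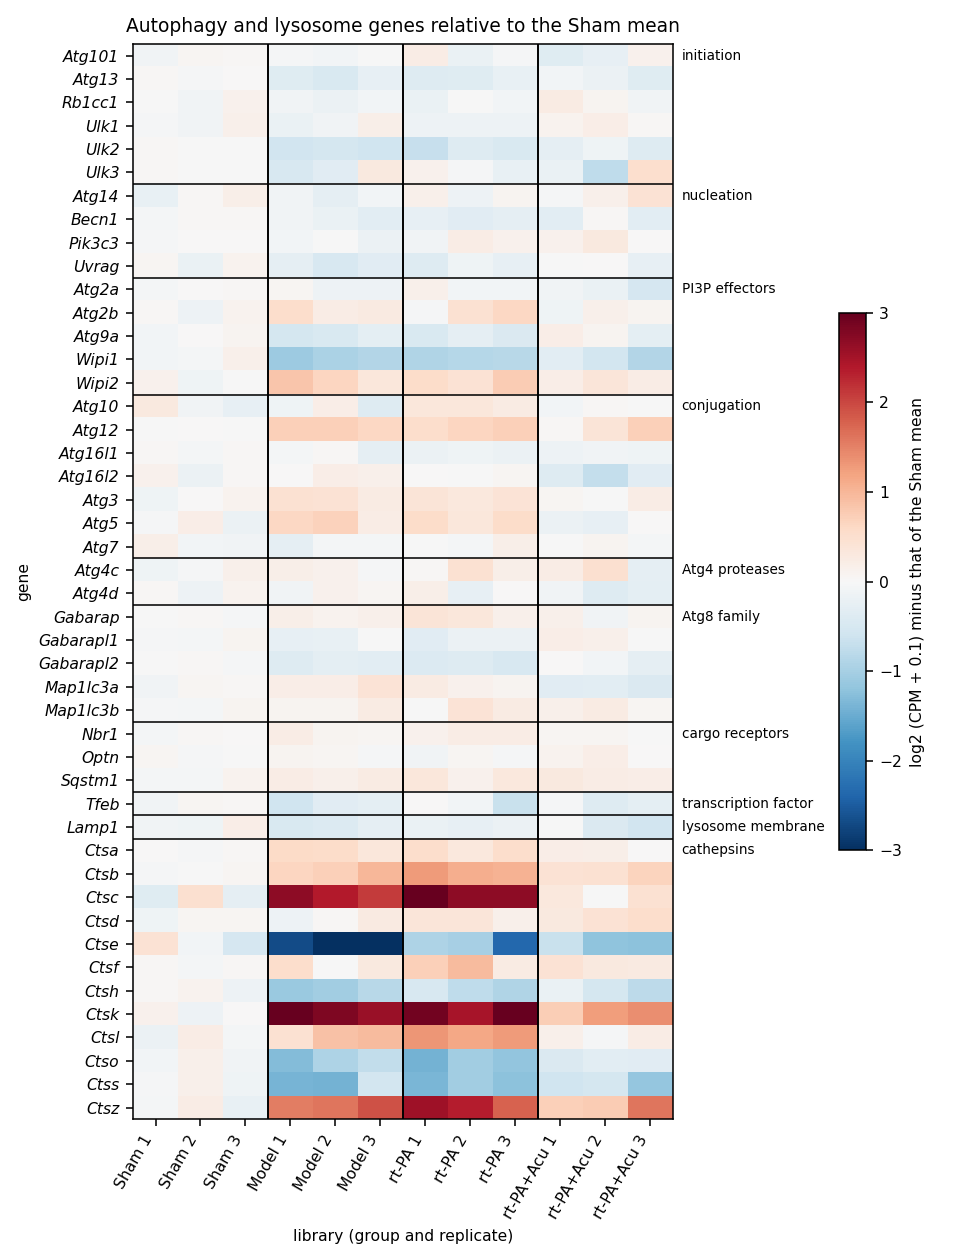
Heat map of the 46 members tested in Model vs Sham. Each row is a gene, grouped by role, each column is a library, and colour is log2 of CPM plus 0.1 minus the same value of the Sham mean, with the scale ending at -3 and 3. The strongest colours are in the cathepsin block: Ctsk, Ctsc and Ctsz are red in all Model and rt-PA libraries and paler in rt-PA+Acu, and Ctse is blue in Model.

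Of the 17 cathepsin genes, 12 were tested in Model vs Sham, of which 6 were higher (50%), 4 were lower (33.3%) and 2 were not called. Among all genes 27.3% were higher and 26.6% were lower. Ctsk, a cysteine protease best known for degrading bone collagen, lay at 10.9, 8.94 and 9.95 CPM in the Sham libraries and at 113, 69.6 and 60.5 CPM in Model. Every Model library was far above every Sham library, and the log2 fold change was 3.04 (SE 0.25, adjusted p = 4.76e-05). Ctsc, which activates the serine proteases of granulocytes and cytotoxic lymphocytes, lay at 7.01, 12.5 and 7.42 CPM in Sham and at 57.9, 47.1 and 38.7 CPM in Model. Its groups were also well apart, with a log2 fold change of 2.42 (SE 0.25, adjusted p = 0.000138). Ctsz, a carboxypeptidase, lay at 13.2, 16.1 and 11.8 CPM in Sham and at 39.5, 41.6 and 51.3 CPM in Model. That difference was 1.69 on the log2 scale (SE 0.16, adjusted p = 8.71e-05).

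Smaller rises were found for 3 cathepsins that were already abundant in Sham. Ctsb, a broad-specificity cysteine protease, had 371, 374 and 392 CPM in Sham and 593, 625 and 750 CPM in Model, a log2 fold change of 0.80 (SE 0.10, adjusted p = 0.000351). Ctsl, an endopeptidase of the lysosome, had 103, 136 and 112 CPM in Sham and 162, 214 and 226 CPM in Model, a log2 fold change of 0.79 (SE 0.15, adjusted p = 0.0026). Ctsa, the protective protein of the lysosomal galactosidase and neuraminidase complex, rose by 0.50 (SE 0.09, adjusted p = 0.00244). In none of the 3 did a Model library reach down to the Sham range.

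Other cathepsins fell after the clot. Ctss, a cysteine protease of antigen-presenting cells, lay at 416, 478 and 388 CPM in Sham and at 163, 159 and 292 CPM in Model. Model replicate 3 was the highest of its group but still below Sham, and the log2 fold change was -1.06 (SE 0.22, adjusted p = 0.00452). Ctsh, an aminopeptidase, fell by 0.99 (SE 0.11, adjusted p = 0.000234), from 54.1 to 64.8 CPM in Sham to 27.5 to 33.5 CPM in Model. Ctso, a little-studied cysteine protease, fell by 0.96 on the log2 scale (SE 0.17, adjusted p = 0.0018), from 26.3 to 31.3 CPM in Sham to 11.4 to 16.9 CPM in Model. Ctse, an aspartic protease of immune and epithelial cells, was near the limit of detection, with 26, 19 and 12 counts in Sham and 2, 0 and 1 in Model. Summed over the group, Sham had 57 counts and Model 3, a ratio of 19 with an exact 95% interval of 6.19 to 95 that covers counting error only, and the test called it lower (adjusted p = 0.00189).

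Ctsd, the main aspartic protease of the lysosome, was not called. It had 238, 271 and 274 CPM in Sham and 234, 269 and 316 CPM in Model, so that the groups overlapped, and the 95% interval of the log2 fold change ran from -0.20 to 0.34. Ctsf, another cysteine protease, was not called either, with a log2 fold change of 0.29 (adjusted p = 0.0991), though it passed without Model replicate 2 (adjusted p = 0.0217). The other 5 cathepsins were too low to test. Ctsg, a protease of neutrophil granules, and Ctsj, Ctsm and Ctsr, which are known from rodent placenta, had 0 counts in all 12 libraries, and Ctsw, which is expressed in cytotoxic lymphocytes, was at or below 0.208 CPM.

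**Figure D2:**
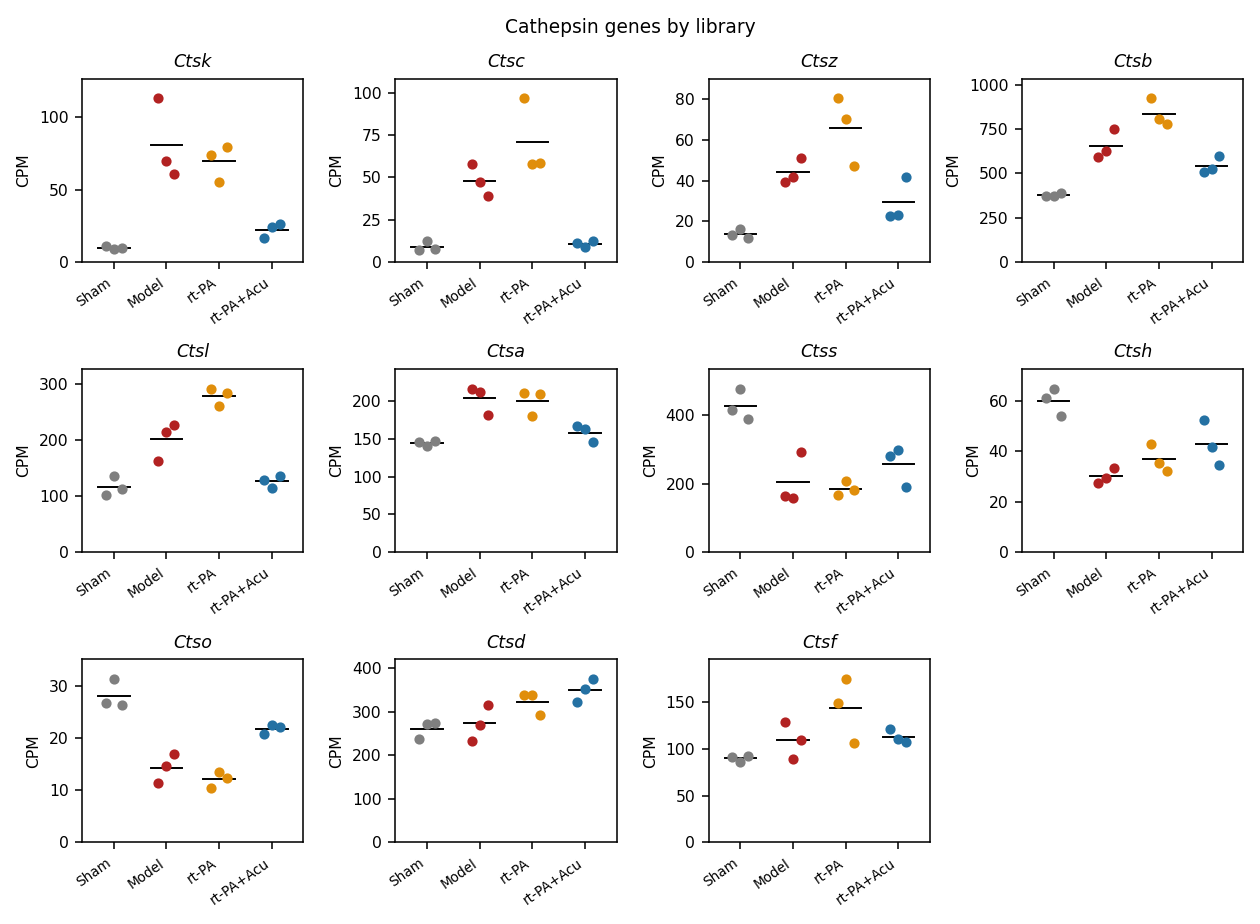
CPM of the 11 cathepsin genes tested in all 4 comparisons, one panel per gene with an axis from 0. Each point is a library and each bar is the mean of 3. In the Ctsk and Ctsc panels the Model and rt-PA points lie far above Sham, and the rt-PA+Acu points of Ctsc, from 8.9 to 12.5, lie at the Sham level.

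Cell type markers moved in the same comparisons. Of 10 listed markers of infiltrating monocytes and macrophages, 9 were tested and 5 were higher in Model than in Sham, with none lower. Their summed level was 124 to 190 CPM in Sham, 289 to 365 in Model, 449 to 689 in rt-PA and 132 to 138 in rt-PA+Acu, and none of them but Ms4a7 was at 0 in every Sham library. Lyz2 and Vcan made up most of the Sham sum, with means of 54 and 93 CPM. Vcan was not called between Model and Sham (log2 fold change -0.07). Of 10 microglial markers, 6 were lower and 3 were higher in Model, and the summed level overlapped between Sham (640 to 805 CPM) and Model (566 to 685 CPM). Of 10 neutrophil markers, 5 were tested and 2 were higher. Mpo, Elane and Ltf were at 0 in all libraries, and the summed level reached 7.87 to 12.4 CPM in Sham, 7.25 to 17.7 in Model, 16.2 to 81.9 in rt-PA and 6.46 to 6.79 in rt-PA+Acu. Of 10 markers each, 5 neuronal, 8 astrocytic and 8 oligodendrocyte markers were lower in Model and 2, 1 and 0 were higher, and of 8 endothelial markers tested 2 were higher and 1 was lower. The part of these cells in the cathepsin values was not tested.

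Of the 6 initiation genes, Ulk2 and Atg13 were lower in Model than in Sham (33.3%) and Ulk1, Ulk3, Rb1cc1 and Atg101 were not called. Of the 4 nucleation genes, Uvrag was lower (25%). Both shares lay near the 26.6% of all genes that were lower, and the median log2 fold changes were -0.12 and -0.17, against 0.01 over all genes. Ulk2, a kinase that starts autophagosome formation, had 107, 105 and 103 CPM in Sham and 70.0, 72.2 and 69.3 CPM in Model. The groups were narrow and well apart, and the log2 fold change was -0.57 (SE 0.08, adjusted p = 0.000518). Its paralog Ulk1 differed by only -0.03 (95% interval -0.31 to 0.25). Atg13, the regulatory subunit of the complex, fell by 0.35 (SE 0.09, adjusted p = 0.00915).

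Becn1 encodes Beclin 1, the scaffold of the nucleation complex. It had 130, 139 and 138 CPM in Sham and 126, 118 and 109 CPM in Model. All Model libraries were below Sham, but the log2 fold change of -0.20 (SE 0.09, adjusted p = 0.0894) did not pass the threshold. It passed when Model replicate 1 was left out (adjusted p = 0.0493). Uvrag, which joins Beclin 1 in a complex of endosome and autophagosome maturation, had 46.2, 38.6 and 47.8 CPM in Sham and 37.0, 31.9 and 34.9 CPM in Model. It was called lower (log2 fold change -0.35, SE 0.12, adjusted p = 0.0371), and the call was lost without Sham replicate 1 or 3 or Model replicate 2 or 3, where the adjusted p reached 0.124. Pik3c3, the catalytic subunit, and Atg14, the subunit that directs the complex to autophagy, were not called.

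Of 5 tested genes that bind the phosphatidylinositol 3-phosphate mark or serve lipid transfer and scrambling, 2 were higher and 2 were lower (40% each). Among all genes 27.3% were higher and 26.6% were lower. Wipi1 and Wipi2 are paralogs that bind the mark, and they moved in opposite directions. Wipi1 had 64.1, 64.9 and 75.1 CPM in Sham and 32.1, 35.05 and 36.8 CPM in Model, so that every Model library was below every Sham library. The log2 fold change was -0.97 (SE 0.10, adjusted p = 0.000175), the largest fall among the members other than cathepsins. Wipi2, which recruits the conjugation machinery, had 51.5, 42.6 and 46.6 CPM in Sham and 84.2, 73.0 and 59.6 CPM in Model. It rose by 0.63 on the log2 scale (SE 0.14, adjusted p = 0.00604). Atg9a, a lipid scramblase of the membrane source vesicles, fell by 0.42 (SE 0.09, adjusted p = 0.00538). Atg2b, a lipid transfer protein, was higher by 0.35 (SE 0.11, adjusted p = 0.0282), a call that was lost without Sham replicate 1 or 2 or Model replicate 1 (adjusted p up to 0.106) and in a fit over all 12 libraries (adjusted p = 0.08). Atg2a was not called, and Atg9b had only 0 to 3 counts in Sham and 6 or 7 in Model and was not tested.

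Of the 7 conjugation genes, Atg12, Atg5 and Atg3 were higher (42.9%) and none was lower, against 27.3% higher and 26.6% lower among all genes. The median log2 fold change was 0.13 over the 7 genes and 0.01 over all genes. Atg12, the ubiquitin-like protein that is attached to Atg5, was at 98.7, 100 and 99.2 CPM in Sham and at 162, 163 and 152 CPM in Model. Its libraries were close together within each group, and it rose by 0.69 (SE 0.08, adjusted p = 0.000216). Atg5 itself had 26.3, 31.3 and 23.8 CPM in Sham and 41.7, 43.7 and 31.9 CPM in Model, a log2 fold change of 0.53 (SE 0.16, adjusted p = 0.02). Model replicate 3 lay only just above the highest Sham library, and the call was lost without Sham replicate 1 or 3 or Model replicate 1 or 2 (adjusted p up to 0.0775). Atg3, the enzyme that transfers Atg8 proteins to lipid, rose by 0.39 (SE 0.10, adjusted p = 0.0103). Atg7, the activating enzyme, Atg10, the transfer enzyme for Atg12, and Atg16l1 and Atg16l2, which place the complex on the membrane, were not called.

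The Atg8 proteins themselves split. Map1lc3a, which encodes LC3A, had 134, 150 and 146 CPM in Sham and 166, 165 and 191 CPM in Model, a log2 fold change of 0.28 (SE 0.09, adjusted p = 0.031). Its call was lost without any 1 of the Sham libraries or without Model replicate 3 (adjusted p up to 0.121). Map1lc3b encodes LC3B, the usual marker of autophagosomes, and had 79.9, 78.3 and 85.7 CPM in Sham and 86.1, 86.2 and 95.8 CPM in Model. The groups did not overlap, but the difference was small and was not called (log2 fold change 0.14, 95% interval -0.06 to 0.34, adjusted p = 0.2). Gabarapl2, another Atg8 protein, had 189, 196 and 186 CPM in Sham and 146, 155 and 154 CPM in Model and fell by 0.32 (SE 0.08, adjusted p = 0.00714). Gabarap and Gabarapl1 were not called, although Gabarapl1 was lower without Model replicate 3 (log2 fold change -0.22, adjusted p = 0.041). Also not called were Atg4c and Atg4d, proteases that process Atg8 proteins. Of these, Atg4c had the smaller adjusted p (0.467), with 31.2, 33.4 and 38.0 CPM in Sham and 38.9, 37.5 and 33.5 CPM in Model.

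No cargo receptor was called. Sqstm1 had 462, 469 and 523 CPM in Sham and 567, 542 and 572 CPM in Model. Each Model library was above each Sham library, with a log2 fold change of 0.22 (95% interval 0.03 to 0.40) and an adjusted p of 0.0536. It passed the threshold without Sham replicate 3 (adjusted p = 0.0409) and in DESeq2 (adjusted p = 0.0494). Nbr1 and Optn, receptors for ubiquitinated cargo, differed by 0.13 and 0.05. Tfeb had 10.9, 12.3 and 12.1 CPM in Sham and 7.71, 9.23 and 9.50 CPM in Model, a log2 fold change of -0.41 (SE 0.17) that was not called (adjusted p = 0.067). Lamp1, a major glycoprotein of the lysosomal membrane, had 404, 398 and 495 CPM in Sham and 317, 328 and 358 CPM in Model. It was called lower (log2 fold change -0.36, SE 0.11, adjusted p = 0.0192), but not without Sham replicate 3 or Model replicate 1 or 2 (adjusted p up to 0.0669). Lamp3, which is characteristic of mature dendritic cells, had 0 counts in every Sham library and 2, 3 and 4 in Model and was not tested.

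**Figure D3:**
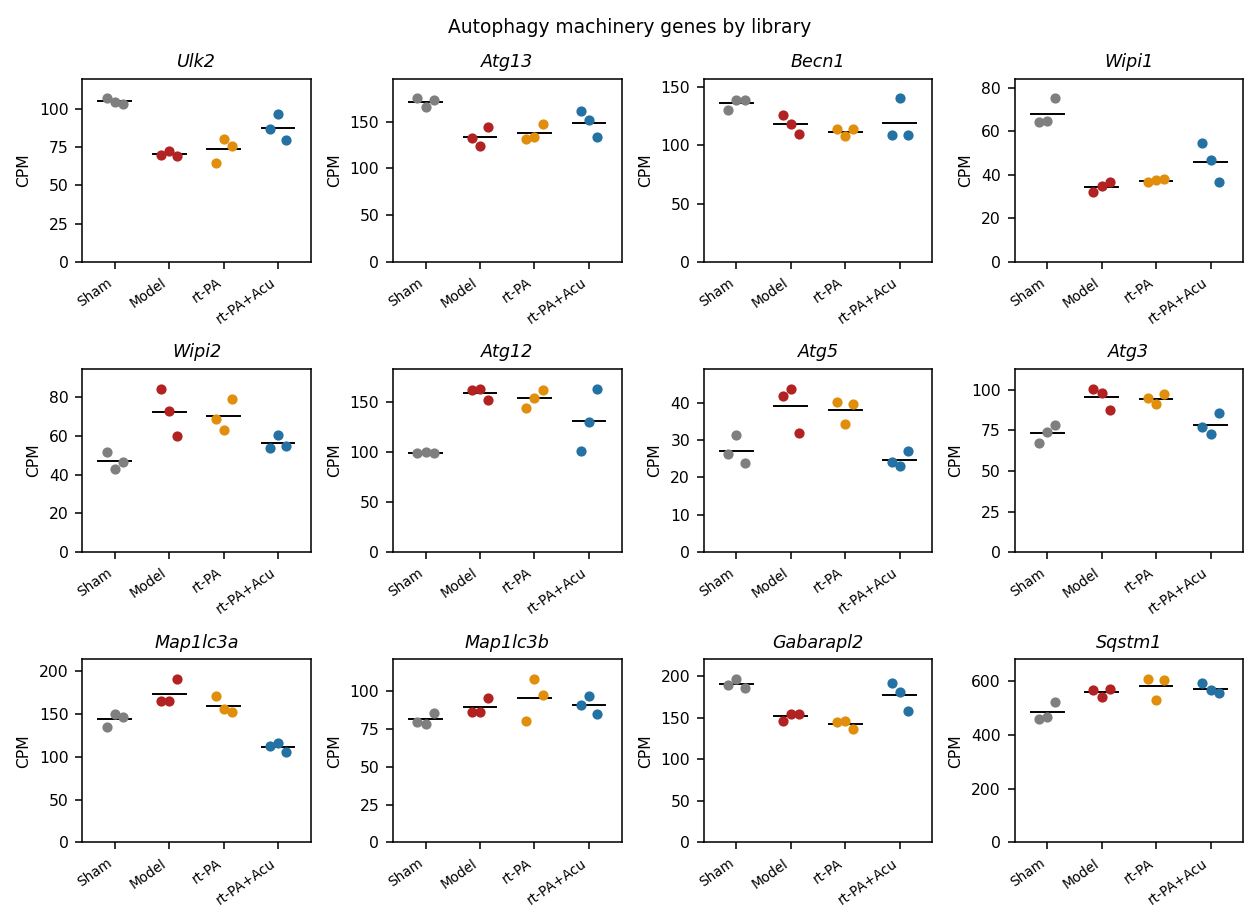
CPM of 12 genes of the autophagy machinery, one panel per gene with an axis from 0. Each point is a library and each bar is the mean of 3. Wipi1 and Wipi2 lie in opposite order in Sham and Model, the Map1lc3a points of rt-PA+Acu lie below all other groups, and the Map1lc3b and Becn1 points differ little among groups.

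Related lysosome and autophagy genes outside the symbol rule went both ways after embolism, and their shares are set beside the 27.3% of all genes that were higher and the 26.6% that were lower. Of 33 lysosomal hydrolases other than cathepsins, 8 were higher (24.2%) and 10 were lower (30.3%). The hydrolase DEG with the largest rise was Lgmn, the asparaginyl endopeptidase that matures several cathepsins (98.7 to 106 CPM in Sham and 260 to 261 in Model, log2 fold change 1.36, SE 0.08, adjusted p = 1.08e-05). The largest fall was that of Tpp1, a tripeptidyl peptidase (log2 fold change -1.16, SE 0.16, adjusted p = 0.000549). Of 19 lysosomal membrane proteins, 4 were higher (21.1%) and 9 were lower (47.4%). Cd68, a macrophage lysosomal glycoprotein, rose most (0.403 to 0.764 CPM in Sham and 3.59 to 4.13 in Model, log2 fold change 2.66, SE 0.36), and Tpcn1, a lysosomal cation channel, fell most (log2 fold change -1.07, SE 0.16). Among 14 subunits of the proton pump that acidifies the lysosome, 3 were higher (21.4%) and 2 were lower (14.3%), with no DEG.

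Of 8 listed inhibitors of cathepsins, 3 had enough counts to be tested, and each of these was a DEG in Model vs Sham. Cstb, an inhibitor inside cells, rose by 1.13 on the log2 scale (SE 0.12, adjusted p = 0.000186). The secreted inhibitors Cst6 and Cst3 fell by 2.06 (SE 0.31, adjusted p = 0.000836) and by 1.69 (SE 0.18, adjusted p = 0.000165). Cst3, which encodes cystatin C, is named outside the naming rule, after its values were seen. It went from 1560 to 2012 CPM in Sham to 435.5 to 691 CPM in Model, and the groups did not overlap.

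Among 33 regulators of mTORC1, AMPK and the lysosome, 11 were higher (33.3%) and 11 were lower (33.3%). Tfec, a relative of Tfeb that is expressed in macrophages, had 0 counts in all Sham libraries and 1.24 to 1.83 CPM in Model, at least 6.15-fold higher against a level of 3 counts per Sham library. Ddit4, an inhibitor of mTORC1, fell by 2.12 (SE 0.43, adjusted p = 0.00368), with 95.8 to 120 CPM in Sham and 9.24 to 43.0 CPM in Model. Of 28 other autophagy factors, 9 were higher (32.1%) and 5 were lower (17.9%), with Bag3, a co-chaperone of selective autophagy, rising most (log2 fold change 1.32, SE 0.25, adjusted p = 0.00284). Of 18 receptors and regulators of selective autophagy and mitophagy, 4 were higher (22.2%) and 7 were lower (38.9%). Stbd1, a glycogen receptor, rose by 1.15 (SE 0.30, adjusted p = 0.0117), and Pink1, the kinase that marks damaged mitochondria, fell by 1.28 (SE 0.18, adjusted p = 0.000562).

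The comparison of rt-PA with Model asked what late thrombolysis added to the clot. No member was called among the 45 tested by edgeR, and none by DESeq2. In edgeR the same held for all 12941 genes, where 0% were higher, 0% were lower and 0% reached the DEG threshold in either direction. The paper, which used DESeq2 at the same DEG threshold, did report DEGs between these groups. A DESeq2 count over all genes is not given here. At an unadjusted p under 0.05 there were 4 members, all cathepsins and all higher in rt-PA. The share of all genes under that unadjusted threshold was not computed, so no excess can be read from this count. Ctsl had 162, 214 and 226 CPM in Model and 291, 261 and 284 CPM in rt-PA, and the groups did not overlap (log2 fold change 0.47, SE 0.14, adjusted p = 0.366). Ctsb had 593, 625 and 750 CPM in Model and 923, 808 and 778 CPM in rt-PA (log2 fold change 0.35, SE 0.12, adjusted p = 0.419), which was likewise without overlap. For Ctsz and Ctsc the rt-PA and Model ranges overlapped, with log2 fold changes of 0.58 and 0.57 (adjusted p = 0.419 and 0.486). In the same comparison the summed monocyte and macrophage markers went from 289 to 365 CPM to 449 to 689 CPM, and their part in these values was not tested.

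Becn1, Sqstm1 and the LC3 genes encode proteins, or close paralogs of proteins, that the study followed by other assays, and they were not called between rt-PA and Model. Becn1 had 114, 107 and 113 CPM in rt-PA, a log2 fold change of -0.08 (95% interval -0.29 to 0.14). Map1lc3b had 80.6, 108 and 97.2 CPM, a log2 fold change of 0.10 (95% interval -0.19 to 0.38), and the sign turned without rt-PA replicate 2 (-0.01). Map1lc3a, at 171, 156 and 152 CPM, differed by -0.12 (95% interval -0.35 to 0.11). Sqstm1 had 609, 530 and 607 CPM, a log2 fold change of 0.06 (95% interval -0.16 to 0.27). No gene of the related lists was called in edgeR.

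The comparison of rt-PA+Acu with rt-PA asked what acupuncture before late thrombolysis changed. Among the members, 5 cathepsins, Atg5 and Map1lc3a were lower with acupuncture and Ctso and Gabarapl1 were higher. That made 7 lower (15.6%) and 2 higher (4.44%) of 45 members tested, against 17.7% lower and 17.0% higher among all 12999 genes. At the DEG threshold there were 4 members lower, all cathepsins, and none higher, against 8.16% and 7.17% of all genes. The median absolute log2 fold change was 0.62 for the 11 cathepsins tested, 0.20 for the 34 other members and 0.40 over all genes. The count of lower members was 6 to 8 when each library was left out in turn. The count of higher members depended on rt-PA+Acu replicate 3: it was 7 without that library and 1 without any other. The 5 members that became higher without it were Wipi1 (log2 fold change 0.45, adjusted p = 0.0226), Atg9a (0.53, adjusted p = 0.00991), Ctss (0.65, adjusted p = 0.00807), Gabarapl2 (0.40, adjusted p = 0.0177) and Ulk1 (0.32, adjusted p = 0.0361). Atg3 became lower (log2 fold change -0.33, adjusted p = 0.0346). DESeq2, with all 6 libraries, called 4 of these 5 higher, all but Wipi1. Atg2b was lower without rt-PA replicate 1 (log2 fold change -0.50, adjusted p = 0.0437), and Ctsf was lower without rt-PA replicate 3 (log2 fold change -0.52, adjusted p = 0.0376).

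Ctsc had 96.7, 57.8 and 58.3 CPM in rt-PA and 11.3, 8.90 and 12.5 CPM in rt-PA+Acu. Every library with acupuncture was below every one without, and the log2 fold change was -2.70 (SE 0.25, adjusted p = 0.00114). Ctsk had 74.2, 55.3 and 79.4 CPM in rt-PA and 16.7, 23.8 and 26.2 CPM in rt-PA+Acu, a log2 fold change of -1.64 (SE 0.21, adjusted p = 0.00224). Ctsl, at 291, 261 and 284 CPM in rt-PA, had 129, 114 and 136 CPM in rt-PA+Acu. These groups were also far apart (log2 fold change -1.14, SE 0.11, adjusted p = 0.00118).

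Ctsz had 80.4, 70.6 and 47.1 CPM in rt-PA and 22.7, 23.3 and 41.9 CPM in rt-PA+Acu. Replicate 3 of each group lay toward the other group, and the log2 fold change was -1.17 (SE 0.29, adjusted p = 0.0193). That call was lost without rt-PA replicate 1 or rt-PA+Acu replicate 1 or 2 (adjusted p up to 0.0721). Ctsb had 510, 523 and 600 CPM in rt-PA+Acu, all below the 778 to 923 CPM of rt-PA (log2 fold change -0.62, SE 0.13, adjusted p = 0.0101). Ctso was the cathepsin that rose, from 10.5, 13.6 and 12.3 CPM in rt-PA to 20.7, 22.5 and 22.2 CPM in rt-PA+Acu (log2 fold change 0.85, SE 0.15, adjusted p = 0.00664). Ctsa, at a log2 fold change of -0.34, did not pass the threshold (adjusted p = 0.0501), but it did without rt-PA replicate 2 (adjusted p = 0.0423) and in DESeq2 (adjusted p = 0.0283).

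Ctss had 166, 208 and 183 CPM in rt-PA and 282, 299 and 192 CPM in rt-PA+Acu. Replicate 3 of rt-PA+Acu lay within the rt-PA range, and the difference of 0.47 was not called (SE 0.18, adjusted p = 0.0752) unless that library was left out (adjusted p = 0.00807) or DESeq2 was used (adjusted p = 0.0409). Ctsd and Ctsh were not called, with log2 fold changes of 0.12 and 0.22. In this comparison all 9 of the tested monocyte and macrophage markers, of 10 listed, were lower in rt-PA+Acu, as were 7 of the 8 endothelial markers tested, whose summed level was 745 to 956 CPM in rt-PA and 306 to 348 in rt-PA+Acu. Of the 10 microglial markers, 3 were higher and 2 were lower, at a summed level of 656 to 669 CPM in rt-PA and 598 to 671 in rt-PA+Acu. Of 5 neutrophil markers tested, 3 were lower. Astrocyte markers were higher at 9 of 10 and neuronal markers at 5 of 10, with none lower, and no oligodendrocyte marker was called. The part of these cell types in the cathepsin values was not tested.

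Outside the cathepsins, Map1lc3a had the smallest adjusted p. It had 171, 156 and 152 CPM in rt-PA and 113, 116 and 106 CPM in rt-PA+Acu, a log2 fold change of -0.52 (SE 0.10, adjusted p = 0.00828). Its paralog Map1lc3b had 90.8, 97.1 and 85.2 CPM in rt-PA+Acu, within the spread of the rt-PA libraries (log2 fold change -0.06, 95% interval -0.37 to 0.24, adjusted p = 0.72). Gabarapl1, an Atg8 protein abundant in brain, had 365, 415 and 412 CPM in rt-PA and 531, 520 and 463 CPM in rt-PA+Acu. It was called higher (log2 fold change 0.35, SE 0.11, adjusted p = 0.0473), but the call held when rt-PA+Acu replicate 3 was left out and was lost without any other library (adjusted p up to 0.161). It was also lost with no filter on low counts (adjusted p = 0.058). Gabarapl2 had 144, 145 and 136 CPM in rt-PA and 192, 180 and 158 CPM in rt-PA+Acu and was not called (log2 fold change 0.32, adjusted p = 0.0549). It was called higher without rt-PA+Acu replicate 3 (adjusted p = 0.0177), in DESeq2 (adjusted p = 0.0239) and in a fit over all 12 libraries (adjusted p = 0.0117).

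Atg5 had 40.0, 34.2 and 39.7 CPM in rt-PA and 24.1, 22.9 and 27.2 CPM in rt-PA+Acu. The groups did not overlap, and the log2 fold change was -0.62 (SE 0.13, adjusted p = 0.011). Its partner Atg12 was spread over 101, 130 and 163 CPM in rt-PA+Acu, against 144, 154 and 162 CPM in rt-PA, and was not called (log2 fold change -0.22, adjusted p = 0.353). Wipi1 was similarly spread in rt-PA+Acu, at 54.8, 46.6 and 36.9 CPM against 36.6, 37.5 and 38.1 CPM in rt-PA, with a log2 fold change of 0.30 (adjusted p = 0.16), and it was called higher without replicate 3 of rt-PA+Acu (adjusted p = 0.0226). In both genes replicate 3 of rt-PA+Acu was the library nearest to rt-PA. The 3 rt-PA+Acu libraries had the same order in Wipi1 as in summed oligodendrocyte markers (22600, 9440 and 3510 CPM), a relation that was not tested. The orders also agreed in Sham, with Wipi1 at 64.1, 64.9 and 75.1 CPM and the markers at 12800, 16100 and 19100 CPM. They agreed in Model too, with Wipi1 at 32.1, 35.05 and 36.8 CPM and the markers at 1840, 4170 and 9240 CPM. In rt-PA the orders of Wipi1 and of these markers (2880, 12400 and 3730 CPM) differed. Ulk2, at 64.6, 80.0 and 75.8 CPM in rt-PA and 86.7, 96.3 and 79.7 CPM in rt-PA+Acu, was not called (log2 fold change 0.25, adjusted p = 0.144).

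Becn1 and Sqstm1 did not pass the threshold with acupuncture. Becn1 had 109, 140 and 108 CPM in rt-PA+Acu, of which replicates 1 and 3 lay within the rt-PA range of 107 to 114 CPM and replicate 2 above it. Its log2 fold change was 0.09 (95% interval -0.20 to 0.38, adjusted p = 0.587), and the sign turned without rt-PA+Acu replicate 2 (-0.03). Sqstm1 had 595, 568 and 556 CPM in rt-PA+Acu, within the range of the rt-PA libraries, with a log2 fold change of -0.02 (95% interval -0.28 to 0.23, adjusted p = 0.887). Tfeb, at 11.4, 8.90 and 9.55 CPM, and Lamp1, at 428, 322 and 290 CPM, were not called either (log2 fold changes -0.02 and -0.12). Lamp1 also followed the order of the oligodendrocyte markers in these 3 libraries and in Model, but not in Sham or rt-PA. In rt-PA it had 379, 366 and 383 CPM, beside marker sums of 2880, 12400 and 3730 CPM. Uvrag had 33.6, 40.7 and 37.2 CPM in rt-PA and 43.9, 44.2 and 37.3 CPM in rt-PA+Acu, and Atg4c had 34.9, 46.8 and 38.7 CPM against 40.2, 47.9 and 28.2 CPM, also without a call.

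**Figure D4:**
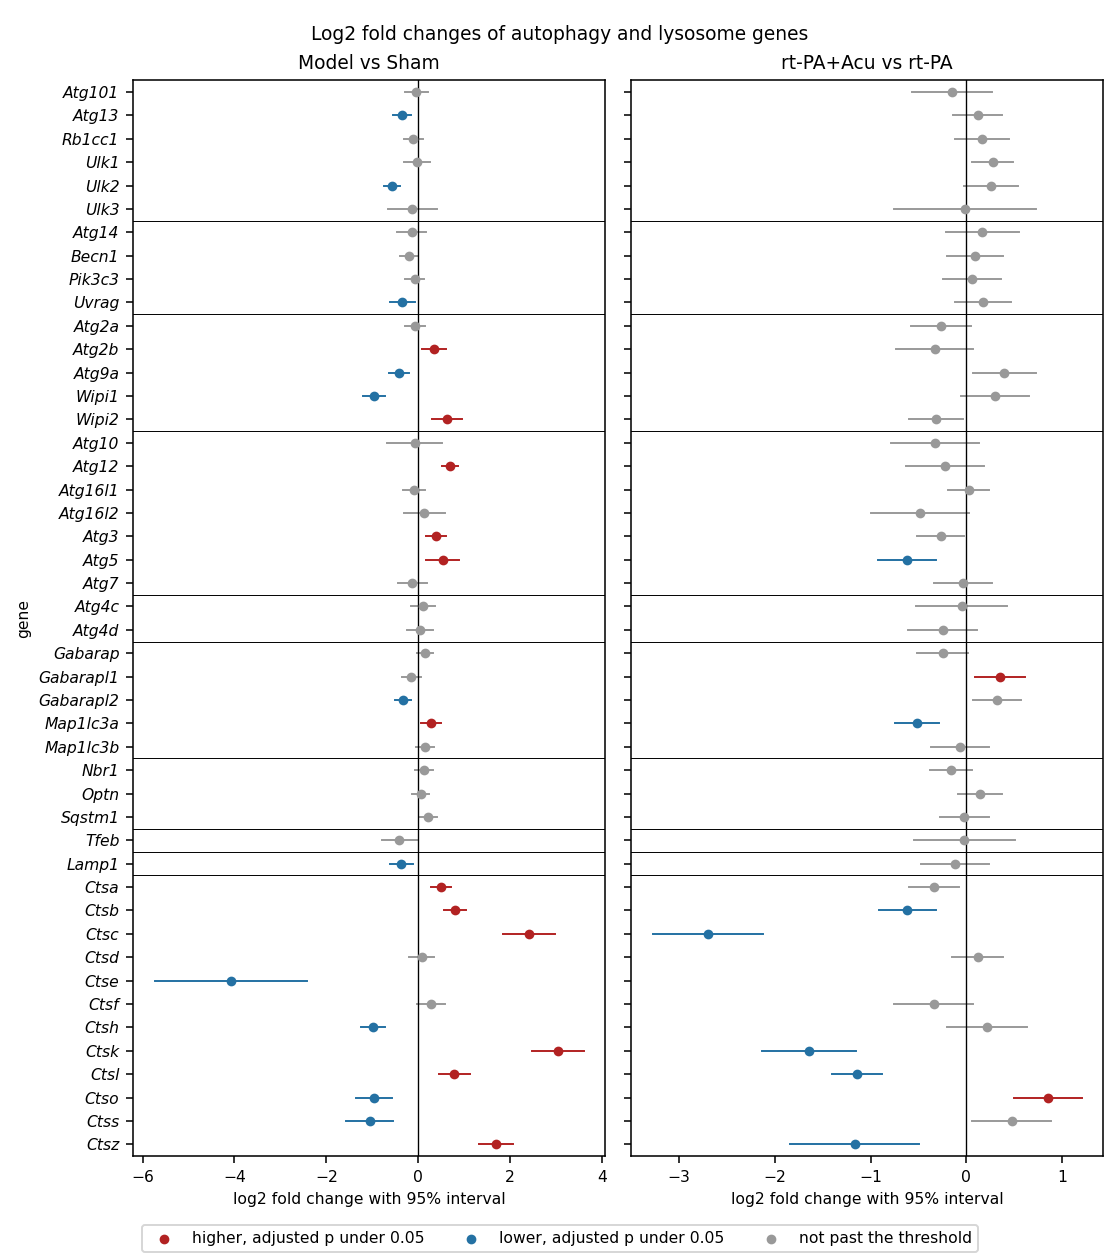
Log2 fold changes of the tested members with their 95% intervals, in role groups, for Model against Sham on the left and rt-PA+Acu against rt-PA on the right. The horizontal scales of the panels differ, red and blue mark genes called higher and lower, and grey marks genes not called. Ctsk, Ctsc, Ctsz, Ctsb, Ctsl, Atg5 and Map1lc3a are red in the first panel and blue in the second.

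The comparisons of Model with Sham and of rt-PA+Acu with rt-PA have no library in common. Of 45 members tested in both, 22 were called in the first comparison and 9 in the second, and 8 were called in both, 36.4% of the first list and 88.9% of the second. All 8 had opposite directions: the 7 members lower with acupuncture were higher in Model than in Sham, and Ctso was lower in Model and higher with acupuncture. The background had the same form, since 3729 of all genes were called in both comparisons, 54% of the first list and 83.7% of the second, and 3715 of these had opposite directions. The members not called in the second comparison included Wipi1, Ulk2, Atg12 and Ctsh, which had adjusted p-values under 0.001 in the first.

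Among the related lists, rt-PA+Acu differed from rt-PA at all 3 tested cathepsin inhibitors. Cstb was lower (log2 fold change -1.01, SE 0.14, adjusted p = 0.00267), and Cst6 and Cst3 were higher by 1.75 (SE 0.26, adjusted p = 0.00371) and 1.19 (SE 0.22, adjusted p = 0.00735). Of the 33 other hydrolases, 4 were higher and 4 were lower (12.1% each). Lgmn was lower by 1.23 (SE 0.18, adjusted p = 0.00342), while Tpp1 did not pass the threshold (log2 fold change 0.60, adjusted p = 0.0519), which it did without rt-PA+Acu replicate 3 (adjusted p = 0.0134) and in DESeq2 (adjusted p = 0.0215). Cd68 fell by 2.28 (SE 0.31, adjusted p = 0.00271). Beside 17.0% of all genes higher and 17.7% lower, of the 19 membrane proteins 2 were higher and 2 lower, of the 14 proton pump subunits 2 were higher, of the 33 regulators 7 were higher and 7 lower, of the 28 other autophagy factors 5 were higher and 4 lower, and of the 18 selective autophagy genes 6 were higher and 2 lower. Ddit4 and Pink1 were higher with acupuncture, by 1.40 (SE 0.26, adjusted p = 0.00697) and 0.96 (SE 0.19, adjusted p = 0.00947). Bag3 was not called, with 12.1 and 9.51 CPM in replicates 1 and 2 of rt-PA+Acu but 48.8 CPM in replicate 3, against 40.1 to 52.9 CPM in rt-PA. Without that replicate its log2 fold change went from -0.98 to -2.10 (adjusted p = 0.000769).

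The comparison of rt-PA+Acu with Sham asked what still differed from surgery without a clot. Of 46 members tested, 2 were higher and none was lower in edgeR, against 1.70% higher and 3.40% lower among all 12775 genes. At an unadjusted p under 0.05 there were 15 members, and DESeq2 called 5 higher and 3 lower. No share of all genes was computed for either of these counts. Ctsk, the single DEG among the members, against 0.916% of genes higher and 1.14% lower at that threshold, had 16.7, 23.8 and 26.2 CPM in rt-PA+Acu, all above the 8.94 to 10.9 CPM of Sham (log2 fold change 1.16, SE 0.20, adjusted p = 0.0196). Ctsb had 510, 523 and 600 CPM in rt-PA+Acu and 371, 374 and 392 CPM in Sham (log2 fold change 0.52, SE 0.11, adjusted p = 0.0378). Both calls were lost without any 1 of the Sham libraries or without rt-PA+Acu replicate 2, where the adjusted p reached 0.105 for Ctsk and 0.18 for Ctsb. The number of members higher was 4 without rt-PA+Acu replicate 1, where Atg12 (adjusted p = 0.0425) and Ctsz (adjusted p = 0.0343) were added, and 0 without rt-PA+Acu replicate 2 or any 1 of the Sham libraries. The number lower was 2 without rt-PA+Acu replicate 1, namely Ctsh (adjusted p = 0.0338) and Wipi1 (adjusted p = 0.0316), and 1 without rt-PA+Acu replicate 3, namely Ctss (adjusted p = 0.0281).

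Several other members had rt-PA+Acu and Sham libraries that did not overlap and were not called. Ctss, at 282, 299 and 192 CPM in rt-PA+Acu, lay below the 388 to 478 CPM of Sham, with a log2 fold change of -0.73 (SE 0.17) that did not pass the threshold. DESeq2 called it lower (adjusted p = 0.00152). Ctsz lay at 22.7 to 41.9 CPM in rt-PA+Acu and 11.8 to 16.1 CPM in Sham (log2 fold change 1.10, adjusted p = 0.0527), and it was called by DESeq2 (adjusted p = 0.00233), by a fit over all 12 libraries (adjusted p = 0.0346) and without rt-PA+Acu replicate 1 or 3 (adjusted p = 0.0343 and 0.0395). Ctsd lay at 322, 351 and 375 CPM in rt-PA+Acu, above the 238 to 274 CPM of Sham (log2 fold change 0.42, adjusted p = 0.0693), and DESeq2 called it higher (adjusted p = 0.00619). Ctsf was also above Sham (log2 fold change 0.33, adjusted p = 0.0803) and was called by DESeq2 (adjusted p = 0.0258). Map1lc3a was below Sham in all 3 libraries (log2 fold change -0.37, adjusted p = 0.0615), a difference that DESeq2 called (adjusted p = 0.00927), as did a fit over all 12 libraries (adjusted p = 0.0408). Wipi1 was also below Sham (log2 fold change -0.57, adjusted p = 0.0673) and was called by DESeq2 (adjusted p = 0.0157). Ctsc and Ctsl, both lower than in rt-PA, differed from Sham by 0.27 (95% interval -0.33 to 0.87) and 0.11 (95% interval -0.19 to 0.40).

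Cell type markers also differed between rt-PA+Acu and Sham. Of 8 endothelial markers tested, 5 were lower, with summed levels of 306 to 348 CPM against 518 to 558 CPM. Of 10 microglial markers, P2ry12 and Tmem119 were lower (log2 fold changes -1.03 and -1.41), Itgam was higher (1.69) and 7 were not called. Of 10 markers each, 1 astrocyte marker was higher and 2 were lower, 1 neuronal marker was lower and no oligodendrocyte marker was called. Of 8 monocyte and macrophage markers tested 1 was lower, and of 3 neutrophil markers tested none was called. The part of these cells in the values of the members was not tested.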

How the data were processed

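The authors aligned paired-end reads of poly(A) RNA to the rat genome mRatBN7.2 with STAR and counted read pairs per Ensembl gene with Salmon 1.9.0. The submitters' processing notes also name featureCounts 2.0.1, and which tool made the table is not settled in the sources used here. The deposited values are whole-number counts per gene, not normalised. The protocol names molecular identifiers in the adapters, and whether they were used in counting is not given in the sources used here.

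Members were chosen by symbol. The members, role groups, pathway lists and marker lists were chosen with earlier results of these data known. Each comparison was fitted on its own 6 libraries in edgeR 4.0.16 (R 4.3.3) with filterByExpr, TMM normalisation, a quasi-likelihood test (two-sided) and Benjamini-Hochberg adjustment over all genes tested. The SE is the log2 fold change divided by the square root of F. Fits were checked on simulated data. Alternatives were DESeq2 1.42.0, its size factors, no filter beyond 1 count, a shared fit of the 12 libraries, a block for the replicate number, and leaving out each library. Values per library were given for Becn1, Map1lc3a, Map1lc3b, Sqstm1, every member that was a DEG in any comparison, and the member with the smallest adjusted p in Model vs Sham in each role group, and more briefly for other called members. From each related list the DEGs with the largest rise and fall in Model vs Sham were named. Within each group no library duplicated another, and libraries of different groups were not compared in this way. RefSeq promoter windows are on GRCr8, another build than that of the counts, so no position of a count feature is given.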

Additional observations from a re-analysis of the deposited data

How the results depend on the processing

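Adding the fold threshold of 1 on the log2 scale reduced the members called higher and lower to 3 and 2 for Model against Sham, to 0 and 4 for rt-PA+Acu against rt-PA, and to 1 higher for rt-PA+Acu against Sham. For rt-PA+Acu against rt-PA the 2 members higher became 6 in DESeq2, 1 with no filter, 4 in a fit over all 12 libraries, and 1 to 7 when each library was left out. For rt-PA+Acu against Sham the counts higher and lower became 5 and 3 in DESeq2, the count lower was 1 with no filter and 2 in the 12-library fit, and leaving out each library gave 0 to 4 higher and 0 to 2 lower. Under every alternative tool, setting and left-out library, apart from the block and the fold threshold, 18 of the 23 calls for Model against Sham were kept, 7 of the 9 for rt-PA+Acu against rt-PA and 0 of the 2 for rt-PA+Acu against Sham. Signs turned with left-out libraries for genes near 0: Map1lc3b for rt-PA against Model (-0.00621 to 0.199), and for rt-PA+Acu against rt-PA Sqstm1 (-0.0886 to 0.009), Map1lc3b (-0.174 to 0.0323) and Becn1 (-0.033 to 0.164). The cause was not tested.

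Same-numbered libraries showed little joint deviation (correlations from -0.121 to 0.146 across genes). These are deviations from means of 3 libraries, so they cannot decide whether the numbers pair the samples, and no label says so. With the replicate block, the count of members higher was 1 for rt-PA+Acu against rt-PA, where Ctsz (adjusted p = 0.0504) and Gabarapl1 (adjusted p = 0.11) were no longer called, and 0 for rt-PA+Acu against Sham. All 23 calls for Model against Sham were kept with the block. With 3 libraries a group, a gene that was not called may still differ within the interval given for it.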
